A study of Saccharomyces cerevisiae with 14 samples.

Results

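PEP4, CPS1 and VMA2 are genes of the yeast vacuole. Their mRNAs carry 4 of the 1184 sites at which cleavage by MazF was followed after induction of meiosis. All sites of these 3 genes were taken from the table, whatever their values, which gave 2 sites in PEP4 (YPL154C), 1 in CPS1 (YJL172W) and 1 in VMA2 (YBR127C). The measurements came from diploid SK1 cells, a fast-sporulating background whose cultures enter meiosis nearly together. All libraries of the course were labelled wild type and were MAT a/alpha. On both chromosomes they carried ndt80::LEU2, a disruption of a gene needed to leave pachytene, together with lys2 and ho::LYS2. The late hours of the course are thus not stages of meiosis after pachytene. Poly(A) RNA was sampled at 0, 1, 2, 3, 3.5, 4, 5, 6, 7 and 8 h after meiosis was induced, with 1 library at each time and no replicates. The series also lists 4 controls at 8 h, 2 of them with ime4::HIS3 on both chromosomes, and these were not analysed here.

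The vacuole is the degradative compartment of yeast, and starving cells entering meiosis rely on it to recycle protein. PEP4 encodes proteinase A, an aspartic protease that activates other vacuolar hydrolases, and diploids that lack it sporulate poorly. CPS1 encodes carboxypeptidase S, a membrane-bound peptidase that reaches the vacuole through the multivesicular body pathway. VMA2 encodes subunit B of the V-ATPase, the proton pump that acidifies the vacuole. MazF is an RNA endonuclease that cuts just before an ACA when its first A is not methylated, so that the share of RNA left uncut at an ACA has been used to read m6A, a methyl mark that the methyltransferase encoded by IME4 places on mRNA during meiosis. The cleavage efficiency is the fraction of RNA cut at a site, from 0 to 1. In a bulk culture, a partial value cannot be told apart between all cells having partly cut RNA and cells that differ from each other.

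The letters around the 4 sites are shown because the 2 sites of PEP4, which lie on the same mRNA, moved differently and are set in different letters. They are 21 bases of the R64 reference of strain S288C, 5′ to 3′ on the strand of the mRNA, with the ACA in capitals. SK1 may differ from R64 in single bases.
PEP4 1144: acaccagagACAatctacctg
PEP4 1434: aagtagataACAataaaaaaa
CPS1 1607: ctgtttgggACAttttggcag
VMA2 716: aatttgtagACAggctggttt
The number in each name is the table's own position within the gene, counted from about 150 bases before the open reading frame. With that start, 1032 of the 1165 sites that could be placed in an R64 reading frame (88.6%) fell on an ACA, whereas the next best start gave at most 4.15% on either strand. These windows are chr16:259926-259946 and chr16:259636-259656 (both minus strand) in PEP4, chr10:99184-99204 (plus strand) in CPS1 and chr2:492245-492265 (minus strand) in VMA2, all in R64. The table itself lists the sites at chromosome 16 positions 269299 and 269009, chromosome 10 position 103365 and chromosome 2 position 479498, in a build not given in the sources used here.

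Position 1144 of PEP4 is base 995 of a reading frame of 1218 bases, and position 1434 lies 67 bases past the end of that frame. The CPS1 site is base 1457 of 1731, and the VMA2 site is base 567 of 1554. Thus 3 of the 4 sites are coding. The second PEP4 site is among the 11.1% of sites on an ACA that lie after the reading frame of their gene. The 3 coding sites read AGACA (PEP4 1144 and VMA2) or GGACA (CPS1), searched on the mRNA strand only, as did 925 of the 1032 sites on an ACA (89.6%). Of all ACA in the reading frames of the listed genes, 12.2% read AGACA or GGACA. PEP4 1434 reads TAACA and is one of the 8.24% of those 1032 sites with an A before the ACA. The reading frame of PEP4 holds 22 ACA, that of CPS1 41 and that of VMA2 26, and in each case 1 of them is in the table. Of these, 3 in PEP4, 5 in CPS1 and 5 in VMA2 read AGACA or GGACA, so most such letters in these genes are not listed.

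PEP4 1144 started as an almost completely cut site and lost cleavage, most of it after 5 h. In the libraries at 0, 1, 2, 3, 3.5, 4, 5, 6, 7 and 8 h, in this order, its fraction cut was 1.00, 0.976, 0.974, 0.944, 0.937, 0.969, 0.923, 0.855, 0.673 and 0.694. The libraries to 5 h all lay at 0.923 or above, and those at 7 and 8 h were lower than every other. The uncut fraction was thus 0.0314 at 4 h, and went from 0.145 at 6 h to 0.327 and 0.306 in the last 2 libraries. The largest step between neighbouring libraries was -0.182, from 6 to 7 h. In these libraries the median of the 214 sites with a value at every time was 0.855 and 0.871. The 7 h value of PEP4 1144 was shared to all digits given with 3 other sites.

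A straight line in the hour gave PEP4 1144 a slope of -0.0401 ± 0.00718 per hour (± SE, from limma's fit over 10 libraries, adjusted p = 0.0307). By this test the site fell, one of 18 to do so among 591 tested sites (3.05%), those measured in 8 or more libraries. No site rose. The count of 18 was 0 with libraries shifted or scaled to 1 median, 0 without any 1 of the 1, 2, 3, 3.5, 4 or 5 h libraries (limma, 81 to 107 sites at an unadjusted p under 0.05 in these fits). Leaving out the 0, 6, 7 or 8 h library gave 5, 2, 8 and 50 in turn. With no replicates, the p-value measures the scatter of single libraries around the line. Its slope was lower than that of all but 47 of the 591. The call was near the threshold and was lost when any of several single libraries was left out. Without any 1 of the 1, 2, 3, 3.5, 4 or 5 h libraries the adjusted p was 0.0522 to 0.0906, with slopes of -0.0425 to -0.0399. The unadjusted p of PEP4 1144 in these fits was 9.42e-05 (without 5 h) to 0.00035 (without 2 h), against 0.000112 over all libraries (limma). The adjusted p also depends on the other sites, of which 0 passed in these fits. From 0 to 6 h alone the slope of PEP4 1144 was smaller, at -0.0196, and passed (limma, adjusted p = 0.0271). In that fit 55 of the 591 sites passed, against 18 over all hours. The unadjusted p of PEP4 1144 was higher there (limma, 0.00156 against 0.000112). With all libraries shifted or scaled to 1 median its slope was -0.0334 and -0.0331 per hour and no longer passed (adjusted p = 0.0657 and 0.0558).

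PEP4 1434 stayed within 0.0401 of the median of the 214 sites with a value at every time. Over the same 10 libraries in order, its fraction cut was 0.891, 0.869, 0.916, 0.840, 0.883, 0.883, 0.865, 0.877, 0.878 and 0.863. These 10 values spanned 0.0751, with no order in the hour, and their SD over the hours was 0.0196 against 0.118 at position 1144. The slope was -0.00230 ± 0.00448 per hour (limma, adjusted p = 0.833), and its scatter around the line (residual SD 0.0199) was smaller than at all but 6.60% of the tested sites. Its slope was the smallest in size of the 4, and its sign turned with libraries shifted or scaled to 1 median (0.00441 and 0.00424 per hour).

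**Figure D1:**
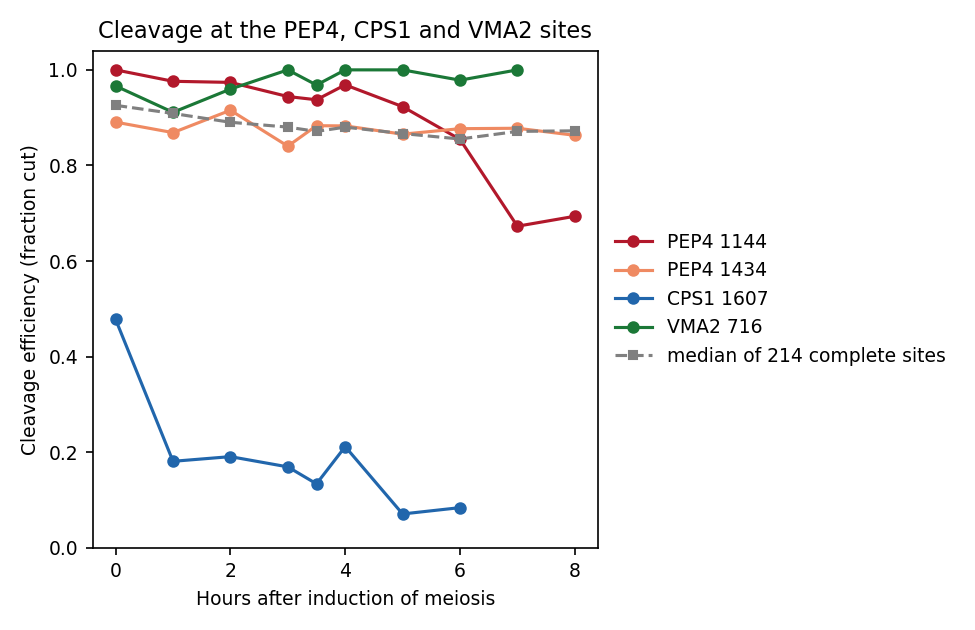
Cleavage efficiency (fraction cut, vertical axis) against hours after induction of meiosis for the 4 sites, 1 library per point, with the median of the 214 sites that have a value at every time as a dashed line. PEP4 1144 leaves the upper range between 5 and 7 h and ends at 0.694, and PEP4 1434 stays within 0.0401 of the median. CPS1 lies far below from the start, and VMA2 lies at 0.911, level with the median, at 1 h and higher in its other libraries.

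The 2 sites of PEP4 are 290 bases apart, and the order of their cleavage changed during the course. The difference, position 1144 minus position 1434, was 0.109, 0.107, 0.0583, 0.104, 0.0542, 0.0859 and 0.0576 in the libraries from 0 to 5 h, and -0.0224, -0.205 and -0.169 in those at 6, 7 and 8 h. Position 1144 was thus the more completely cut site in the first 7 libraries and the less cut one in the last 3. The difference had a slope of -0.0378 per hour (two-sided permutation test with 100000 draws, p = 0.00043, adjusted p = 0.0131 over 61 pairs, n = 10 libraries). Of the 61 pairs of sites within 1 gene that share at least 8 libraries, 2 passed this test (3.28%), and PEP4 was one of them. In size its slope was the 13th largest, and the median size over the pairs was 0.0193 per hour.

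Whether the permutation test of the PEP4 difference passed changed with some single libraries left out. Its adjusted p was 0.0756 without the 1 h library, 0.0689 without 2 h, 0.0600 without 6 h and 0.109 (slope -0.0168) from 0 to 6 h. Leaving out any of the other 7 libraries kept it under 0.05. The adjusted p also depends on the other pairs. Without 1 h the unadjusted p was 0.00176 and 0 pairs passed. Without 8 h it was 0.00214, the adjusted p was 0.0187 and 9 pairs passed. Among the pairs, 12 in 11 genes joined an AGACA or GGACA site with a site of other letters, as in PEP4. In 8 of these 12 the AGACA or GGACA site had the lower slope, with a median difference of -0.0176 per hour, and 1 of the 12, PEP4, passed. Over single tested sites the median slope was -0.00582 over 456 tested AGACA or GGACA sites and -0.00684 over 64 with other letters, of which 13 and 2 fell.

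**Figure D2:**
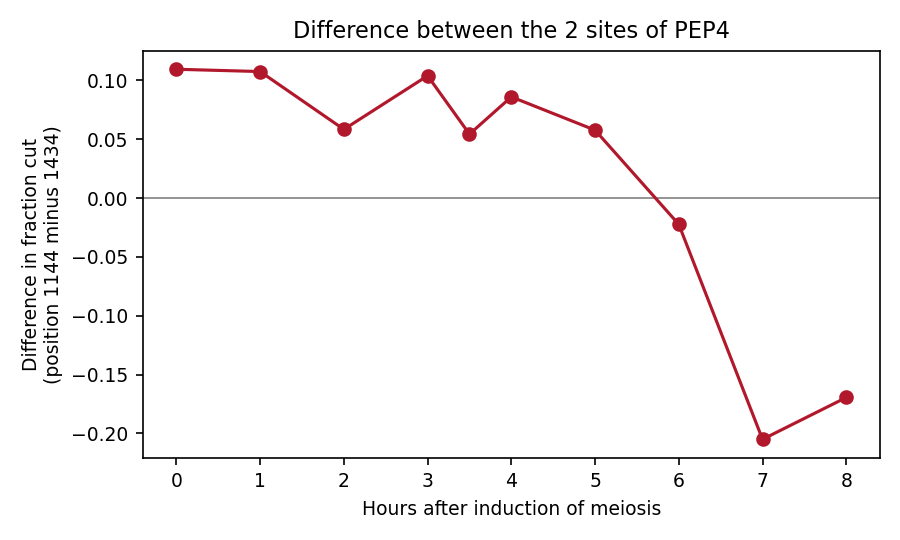
Difference in the fraction cut between the 2 PEP4 sites (position 1144 minus position 1434, vertical axis) in each library against hours after induction of meiosis. It is positive from 0.0542 to 0.109 in the libraries to 5 h, crosses 0 before 6 h and is -0.205 at 7 h and -0.169 at 8 h.

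**Figure D3:**
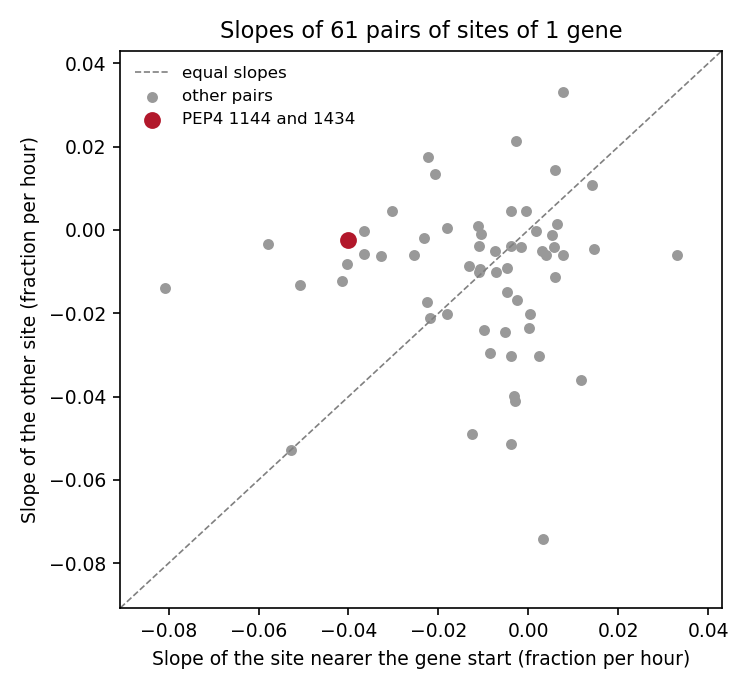
Slope over the hours (fraction per hour) of the site nearer the gene start (horizontal axis) against that of the other site (vertical axis) for 61 pairs of sites of 1 gene, with the line of equal slopes dashed. PEP4, in red, has slopes of -0.0401 and -0.00230 and lies away from the line, as do several other pairs.

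CPS1 was cut by less than any other of the 4 sites wherever it had a value, and least at 5 and 6 h. In the 8 libraries from 0 to 6 h, in order of time, its fraction cut was 0.478, 0.181, 0.191, 0.169, 0.134, 0.212, 0.0709 and 0.0841, with no value at 7 or 8 h. The 0 h library stood alone above the others, the libraries from 1 to 4 h overlapped in no set order, and those at 5 and 6 h were below all others. The uncut fraction was thus 0.522 at 0 h and 0.929 at 5 h. The largest step, -0.297, was between 0 and 1 h.

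The slope of CPS1 was -0.0499 ± 0.0134 per hour (limma, adjusted p = 0.0722, 8 libraries) and did not pass over all tested sites. With the fit held to 0 to 6 h, the hours at which the site has values, the slope was the same and the adjusted p was 0.0429. The values of CPS1 are the same in both fits, and its unadjusted p hardly moved (limma, 0.00379 and 0.00356). Over all tested sites, 55 of 591 passed in the fit to 6 h, against 18 over all hours. Without the 0 h library the slope was -0.0229 (adjusted p = 0.265), so the size of the fall rested on that library. Without 0 h the 7 values had a mean of 0.149 and a highest value of 0.212. The mean over its libraries was lower than that of all but 14 of the 591 tested sites.

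VMA2 was cut almost completely in every library where it had a value. In the 9 libraries from 0 to 7 h, in order of time, its fraction cut was 0.966, 0.911, 0.960, 1.00, 0.968, 1.00, 1.00, 0.978 and 1.00, with no value at 8 h. The 4 values of 1.00 and the other values from 3 h on lay above all 3 values from 0 to 2 h. The slope was 0.00825 ± 0.00349 per hour (limma, adjusted p = 0.236, 9 libraries), which did not pass. It was 0.0168 and 0.0173 with libraries shifted or scaled to 1 median (adjusted p = 0.0657 and 0.0558) and 0.00470 without the 1 h library, short of the threshold each time. At most 0.0888 of the RNA was uncut at this site, at 1 h.

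The values of VMA2 were often shared exactly with other sites. At 1 h 8 other sites had the same fraction to all digits given, and at 0 h 4 did, while PEP4 1144 shared its value with 3 other sites at 7 h and with 2 at 4 h, and CPS1 with 2 at 6 h. PEP4 1434 shared none of its 10 values. Read numbers per value are unknown, no counting interval can be given, and the part of few reads in shared values and in values of exactly 1.00 was not tested. Values of 1.00 made up 16.1% of sites at 0 h and 6.93% at 6 h. Fewest sites had a value at 0 h (299) and most at 3.5 h (1171), with 740 at 7 h and 626 at 8 h.

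The median of the 214 complete sites was 0.926 at 0 h and 0.872 at 8 h, so each site was also placed among the sites that have values in the same libraries. PEP4 1144 stood above 82.7% of 214 such sites at 0 h, and above 91.1% at 2 h and 77.1% at 5 h. It then stood above 49.1%, 15.9% and 12.6% of them in the last 3 libraries. PEP4 1434 stood above 32.7% to 62.6% of the same sites throughout. CPS1 was the 4th to 8th lowest of 249 sites in each of its 8 libraries, and with so few sites below it its place could hardly show a fall. VMA2 stood above 52.8% of 229 sites at 1 h, 70.3% at 0 h and 83.0% at 2 h, and above 90.0% to 97.4% from 3 h on. PEP4 1144 moved furthest of the 4 among these sites.

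**Figure D4:**
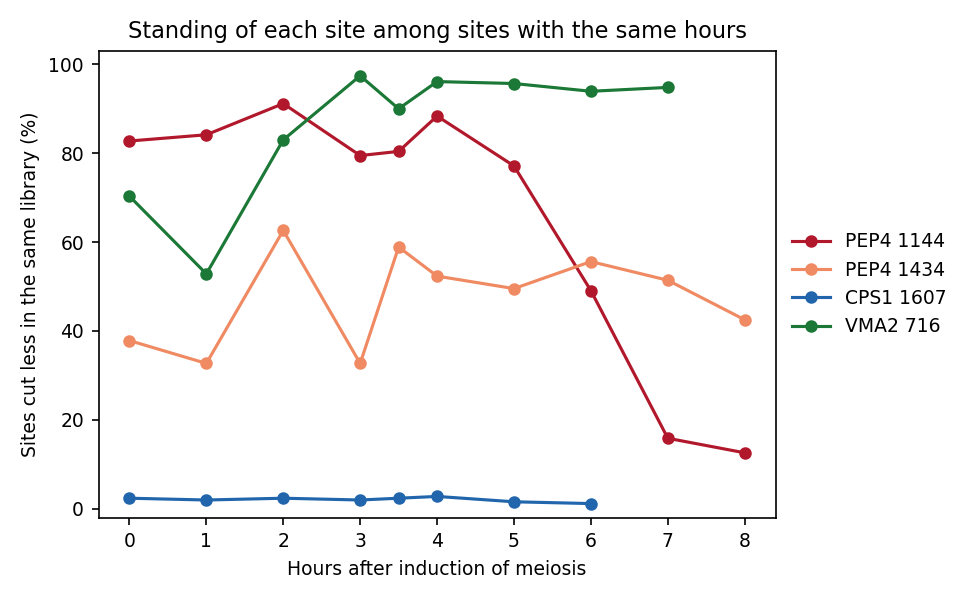
Percent of sites that were cut less than the named site in the same library (vertical axis) against hours after induction of meiosis, among the sites with values in the same libraries (214 for both PEP4 sites, 249 for CPS1, 229 for VMA2). PEP4 1144 goes from 82.7% to 12.6%, CPS1 remains below 3% and VMA2 is at 90.0% or above from 3 h.

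Libraries from 5 to 8 h were then compared with those from 0 to 2 h, which asks for no straight line. PEP4 1144 had a mean of 0.983 early (3 libraries, 0.974 to 1.00) and 0.786 late (4 libraries, 0.673 to 0.923), a difference of -0.197 ± 0.0526 (estimate ± SE, limma, adjusted p = 0.0609). PEP4 1434 had 0.892 early and 0.871 late, a difference of -0.0208 ± 0.0291 (adjusted p = 0.699). CPS1 had 0.283 early and 0.0775 late, the latter over 2 libraries only, a difference of -0.206 ± 0.0772 (adjusted p = 0.165) that was -0.108 without the 0 h library. VMA2 had 0.946 early and 0.993 late, a difference of 0.0471 ± 0.0178 (adjusted p = 0.165) that was 0.0298 without the 1 h library. None of the 4 passed, against 18 of 496 tested sites (3.63%), all 18 of them lower late. Shifting the libraries to 1 median gave 7 lower and 4 higher, and scaling them 16 lower and 7 higher. The count was 0 when the 1, 3.5, 5, 6 or 7 h library was left out (limma, 66 to 97 sites at an unadjusted p under 0.05) and 29 when the 8 h one was. Early and late values did not overlap at PEP4 1144, CPS1 and VMA2 and overlapped at PEP4 1434. Late values lay wholly under early ones at 116 of the 496 sites (23.4%), as at PEP4 1144 and CPS1, and wholly above them at 12 (2.42%), as at VMA2. VMA2 thus went against the direction most common in the table, by a difference that did not pass.

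The result of the window comparison depended on scale at 2 of the sites. On a logit scale PEP4 1144 was lower late (limma, adjusted p = 0.0231). With libraries shifted or scaled to 1 median, VMA2 was higher late by 0.0909 and 0.0938 (adjusted p = 0.0337 and 0.0279).

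Among other genes of the vacuole and of autophagy, no tested site passed, against 18 of all 591 tested sites (3.05%). At so low a share, 0 passing does not set these genes apart. With PEP4, CPS1 and VMA2 included, 34 sites of 30 genes were listed, 20 of them with enough values to be tested. Of those 20, 16 had a negative slope. Their median was -0.00584 per hour against -0.00614 over all 591 sites, of which 72.8% were negative. The only fall was PEP4 1144. Of the 16 tested sites outside PEP4, CPS1 and VMA2, 13 had a negative slope and 0 passed (limma, 1 at an unadjusted p under 0.05, lowest adjusted p = 0.215).

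The proton pump was represented by its subunit a besides VMA2. VPH1, the subunit a of the vacuolar pump, was cut by 0.939 at 0 h, 0.766 at 7 h, its lowest value, and 0.937 at 8 h. STV1, the subunit a of the pump in the Golgi and endosomes, had values from 0.946 to 1.00. Their slopes were -0.00409 ± 0.00852 and -0.00326 ± 0.00274. No proton pump site had a slope past the threshold over all libraries, against 3.05% of all 591 tested sites. With libraries shifted or scaled to 1 median, 0 of the 591 slopes passed (limma, 102 and 101 at an unadjusted p under 0.05). Among the hydrolases, PPN1, a polyphosphatase of the vacuole, lay between 0.826 and 0.972, with a slope of 0.00295 ± 0.00782.

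Of 5 tested autophagy sites 4 had a negative slope and 0 passed (72.8% and 3.05% over all 591 tested sites). The lowest was in ATG20, a sorting nexin, which was at 0.856 at 0 h and 0.589 at 8 h, its lowest value (slope -0.0212 ± 0.0102, adjusted p = 0.292). ATG32, the receptor for mitophagy, was at 1.00 at 2 h and 0.918 at 8 h (slope -0.0153 ± 0.00619, adjusted p = 0.215). ATG26, a sterol glucosyltransferase, had slopes of 0.00516 at position 2766 and -0.00129 at position 3457, and ATG21, a phosphoinositide-binding protein, had one of -0.00481. Of the sorting genes, VPS13, a lipid transfer protein, had a slope of -0.00715 and VPS17, of the retromer, one of 0.00803. All 6 tested sites of vacuolar transport genes had a negative slope and 0 passed (again 72.8% and 3.05% over all 591). They were COT1, a zinc and cobalt transporter (-0.0176), AVT3, an amino acid exporter (-0.0165), VAC7, a regulator of phosphoinositides (-0.0134), FTH1, of iron transport (-0.0110 at position 643 and -0.00380 at 785), and PMC1, a calcium pump (-0.00687).

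**Figure D5:**
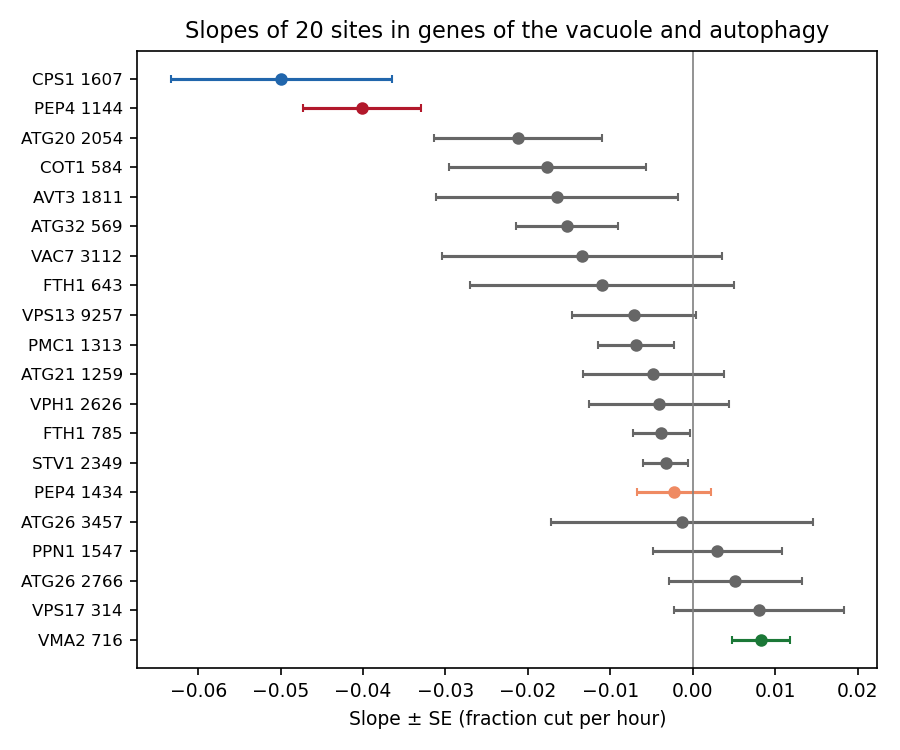
Slope ± SE (fraction cut per hour, horizontal axis) of the 20 tested sites in genes of the vacuole and of autophagy, ordered by slope, with PEP4, CPS1 and VMA2 in colour. CPS1 1607 (-0.0499) and PEP4 1144 (-0.0401) have the lowest slopes and VMA2 716 (0.00825) the highest, and only PEP4 1144 passed over all 591 sites.

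The sites whose values ran most like those of each member were taken by Pearson's r over at least 8 shared libraries, as a description, since all share libraries and the common drift. Closest to PEP4 1144 were HAP4 1220, in the gene of an activating subunit of the HAP complex (r = 0.956, 8 libraries), NNK1 1602, in a kinase gene (r = 0.951, 9 libraries), and DSE3 1099 (r = 0.940, 8 libraries), among 588 candidates. HAP4 1220 was also near in level, going from 1.00 at 2 h to 0.744 at 8 h, with a mean absolute difference from PEP4 1144 of 0.0241. Closest to PEP4 1434 was OPT2 2082, in an oligopeptide transporter gene (r = 0.801), then TAF1 2386 (0.788) and MET2 1145 (0.778). Closest to CPS1 were FAA4 1950, in a fatty acyl-CoA synthetase gene (r = 0.948), KGD2 1406 (0.945) and YRA1 413 (0.917), which were cut far more, with mean absolute differences of 0.682, 0.713 and 0.578. Closest to VMA2 were TOM6 314, of the mitochondrial import pore (r = 0.920), HRT1 377 (0.834) and SDH5 338 (0.826), the last with a mean absolute difference of 0.0141. No site of the vacuolar and autophagy lists was among these 12.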

How the data were processed

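The authors deposited 1 table of cleavage efficiencies, each a fraction between 0 and 1 or missing, measured on MazF-treated RNA per the file headers. STAR 2.5.3a and bedtools 2.26.0 were used, per the submitters' processing notes. How reads were counted as cut, the depth, the rule behind missing values and the build: not given in the sources used here. Each column's hour gave its sample, and 4 columns whose names match no label were used in no step, so the controls and the planned comparison of the ime4 deletion were not analysed here.

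The table has 1198 rows, of which 14 repeat a position under another gene and were removed. Slopes and windows were fitted over all sites with limma 3.58.1 (R 4.3.3) with a mean-dependent prior variance on the fraction. Slopes used the 591 sites with at least 8 values, windows the 496 with at least 2 values per window. The threshold was a Benjamini-Hochberg adjusted p of 0.05. Each p measures scatter of single libraries, and neighbouring times are not independent replicates. Pairs of sites were tested by permutation (numpy 2.4.6, Python 3.11.15). The steps were tested on simulated data. Site letters were read from R64 (pyfaidx 0.9.0.4) at the same distance from the start of the reading frame, not by the table's chromosome coordinates. Names come from R64, which matched 995 of 1010 gene identifiers. All sites of the 3 genes are named, every other site of 5 vacuolar and autophagy lists with at least 8 values, and the 3 sites of other genes most correlated with each member. The members and lists were chosen with earlier results of these data known. Alternatives covered scale, library medians, prior variance, filters, hours, windows and leaving out each library.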

Additional observations from a re-analysis of the deposited data

How the results depend on the processing

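No paired analysis was possible because the course has 1 library per hour and the numbered controls have no column tied to them by name. With libraries shifted to 1 median the slope of PEP4 1144 was -0.0334 and no longer passed, and with libraries scaled it was -0.0331. It was -0.0401 with sites of at least 4 values, with an adjusted p of 0.0815. The slope of PEP4 1144 passed in the other 6 of 9 alternatives. Its adjusted p was 0.00541 on the logit scale, 0.00688 on the arcsine square root scale and 0.0124 over complete sites (limma). With 1 prior variance it was 0.0187, with the rank of the hour 0.0308 and from 0 to 6 h 0.0271 (limma). The slope of PEP4 1434 turned to 0.00441 and 0.00424, and its late difference to 0.0211 and 0.0202, with shifted and scaled libraries. Its values passed in no setting. The slope of CPS1 passed from 0 to 6 h (-0.0499), the late difference of PEP4 1144 on the logit scale (-2.52 logit units), and that of VMA2 with shifted (0.0909) and scaled (0.0938) libraries. The PEP4 pair was at -0.0168 from 0 to 6 h, short of the threshold. It passed on the logit scale and with the rank of the hour (permutation test, adjusted p = 0.00244 and 0.0204).

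The count of sites with a called slope, 18, was 0 with shifted libraries, 0 with scaled ones, 0 with at least 4 values, 8 over complete sites and 55 from 0 to 6 h (limma, with 102, 101, 195, 45 and 157 at an unadjusted p under 0.05). The count of late differences, also 18, was 11 with shifted libraries, 23 with scaled ones, 16 on the logit scale, 2 with 3 h counted as early and 0 with at least 1 value per window (115 unadjusted).

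Leaving out 1 library at a time, the slope ran from -0.0455 to -0.0334 at PEP4 1144 (past the threshold in 4 of 10), -0.00324 to -0.000958 at PEP4 1434, -0.0612 to -0.0229 at CPS1 (past it in 1, without 8 h) and 0.00470 to 0.0109 at VMA2. The late difference ran from -0.243 to -0.160, -0.0322 to -0.00884, -0.257 to -0.108 and 0.0298 to 0.0573, past the threshold in none. The PEP4 pair ran from -0.0438 to -0.0305 (past it in 7). The counts ran from 0 to 50 for slopes and 0 to 29 for late differences, both highest without 8 h. CPS1 has no value at 8 h, so its own values were unchanged in the fit without that library, in which 50 sites passed. The causes of these changes were not tested. Depth is unknown, which limits every single value.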
